A study of Mus musculus with 32 samples.

Results

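A set of 10 genes of fibroblast growth factor (FGF) signalling and of the negative feedback on its kinase ERK were followed through 6 days of retinal organoid culture from mouse embryonic stem cells. They were found in the deposited table by gene symbol, and each matched a single row, giving 10 of 55492 rows. By role they are the FGF ligand genes Fgf4, Fgf8, Fgf15 and Fgf17, the inhibitor genes Spry1, Spry2, Spry4 and Dusp6, and the transcription factor genes Etv4 and Etv5. All 10 reached 1 FPKM (fragments scaled to the length of the transcript and to all mapped fragments of the library) in at least 2 of the 32 libraries, the filter for testing. Because the unit is scaled to transcript length, levels in FPKM can be set side by side between genes.

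FGF ligands are secreted proteins that bind receptor tyrosine kinases and, through Ras, Raf and MEK, switch on the kinase ERK. ERK signalling raises transcription of genes that damp it, among them the Sprouty genes, which act on the path from receptor to Ras and Raf, and Dusp6, a phosphatase that removes phosphate from ERK. It also raises Etv4 and Etv5, ETS-family transcription factors often read as targets of FGF signalling. In stem cells FGF4 drives the exit from naive pluripotency. In the embryo FGF8, FGF15 and FGF17 are expressed in patterning centres of the forebrain and at the boundary of midbrain and hindbrain.

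The samples were of 4 kinds, each taken at days 0, 2, 4 and 6, with 2 libraries per group. WT was the Rx:GFP stem cell line, labelled wild type and untreated. KO was labelled as Mettl3 knockout, Mettl3 encoding the enzyme that methylates adenosine at N6 in messenger RNA. The other kinds were the KO line overexpressing wild-type METTL3 fused to a domain called GRBD, kept without dexamethasone (no Dex) or given 10 µM of it (Dex). Dexamethasone is a synthetic glucocorticoid, and the design text places the fusion protein in the cytosol without it and in the nucleus with it. Both fusion arms therefore carry the Mettl3 knockout. Day 0 samples were stem cells, and the growth protocol gives AGN at 0.1 µM in the differentiation medium. The treatment protocol names 2, 4 and 6 days of Dex although some day 0 samples are labelled as treated, and the labels were followed. No Dex-treated samples without the fusion are among the groups, so the effect of Dex itself and that of the moved fusion cannot be told apart. The labels do not say whether the KO and fusion lines were single clones or whether duplicates were separate cultures, so p-values measure the spread between these libraries, which may be technical.

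Estimated depth was 28.25 to 53.3 M fragments per library (M, mega), with a median of 37.6 M. Duplicates correlated across genes at Pearson r of 0.9885 to 0.9932 on the log2 scale. Mettl3 itself was at 32.51 to 41.21 FPKM in the 8 WT libraries, 34.88 to 43.83 FPKM in the 8 KO libraries, 45.16 to 71.78 FPKM without Dex and 44.46 to 75.06 FPKM with Dex. Its gene-level value was not lower in KO, so these values do not show the knockout, and KO means the libraries labelled so. The labelled stem cells carried stem cell markers: all 6 genes of a pluripotency list (Pou5f1, Nanog, Zfp42, Esrrb, Klf4, Tfcp2l1) reached 1 FPKM in each line at day 0. At day 6, 5 of the 6 still did so in each line, so this count does not separate the days. The summed level did, with means at days 0 and 6 of 1752.65 and 76.185 FPKM in WT and 1950.54 and 27.87 in KO. In the fusion line they were 1859.77 and 30.99 without Dex and 1731.39 and 26.905 with it. Labelled retinal organoids of WT at day 6 had 5 of 5 eye field genes (Rax, Six3, Six6, Lhx2, Pax6) at or above 1 FPKM, against 2 of 5 in KO, 4 of 5 without Dex and 5 of 5 with Dex. In KO at day 6 Rax stood at 0.28 and 0.32 FPKM and Six6 at 0.02 in both libraries, and nearly all of the summed eye field level came from Pax6. Since these are bulk samples, fewer cells of a type and less RNA per cell cannot be told apart.

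Of the 4 ligand genes, Fgf4 had the highest level in stem cells, and it fell sharply between days 2 and 4 in each line. Fgf4 (ENSMUSG00000050917) lies on GRCm38 chromosome 7 from 144847367 to 144865243, plus strand. In the WT libraries it read 39.86 and 40.58 FPKM at day 0, 33.73 and 32.69 at day 2, 4.49 and 4.73 at day 4, and 3.34 and 3.57 at day 6. In KO it read 40.81 and 39.45, then 33.52 and 33.88, then 2.05 and 2.27, and at last 0.99 and 1.03 FPKM. KO thus overlapped WT at day 0 and lay below it, without overlap, at days 4 and 6. The fusion line started lower, at 25.18 and 26.35 FPKM without Dex and 31.23 and 32.13 with it. It ended at 0.66 and 0.77 without Dex and 0.69 and 0.79 with it, below both WT and KO. Mean FPKM at day 6 was 11.6-fold below that of day 0 in WT and 39.7-fold below in KO. In the fusion line it was 36.0-fold lower without Dex and 42.8-fold lower with Dex.

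Fgf8 moved the other way. The gene (ENSMUSG00000025219; chromosome 19, 45736798 to 45742915, minus strand) encodes the ligand of the anterior neural border and of the organiser between midbrain and hindbrain. In WT it read 0.32 and 0.72 FPKM at day 0, 0.94 and 1.15 at day 2, 2.72 and 2.95 at day 4, and 5.09 and 4.53 at day 6. KO reached 2.5 and 2.83 FPKM already at day 2, stood at 1.49 and 1.46 at day 4, and at 3.6 and 3.05 at day 6. The fusion line without Dex held 1.11 to 2.16 FPKM up to day 4 and then stood at 14.21 and 14.91 FPKM at day 6, the highest Fgf8 level of the 16 groups. With Dex it was at 3.97 and 3.92 FPKM at day 6, between KO and WT and overlapping neither. Fgf8 was also the member with the largest SE on the log2(FPKM + 1) scale, at 0.16, and its Dex pair at day 0 read 1.79 and 0.82 FPKM.

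Fgf15 rose early and then fell back. The gene (ENSMUSG00000031073; chromosome 7, 144896531 to 144900953, plus strand) encodes the mouse counterpart of human FGF19 and is expressed in embryonic brain. WT went from 0.54 and 0.56 FPKM at day 0 to 11.6 and 12.61 at day 2, then 10.1 and 10.0 at day 4 and 6.93 and 6.95 at day 6. KO went higher, to 18.08 and 18.4 FPKM at day 2 and 17.11 and 17.37 at day 4, and then dropped to 3.24 and 2.92 at day 6. Its order between KO and WT therefore turned over between days 4 and 6. Without Dex the level was 17.65 and 16.73 at day 2, 14.19 and 15.47 at day 4 and 1.3 and 1.21 at day 6. With Dex it was 12.94 and 13.19, then 13.12 and 13.37, then 2.48 and 2.59 FPKM.

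Fgf17 was a day 0 transcript in each line. The gene (ENSMUSG00000022101; chromosome 14, 70636203 to 70642268, minus strand) encodes a ligand close in sequence to FGF8. Day 0 levels were 5.41 and 5.71 FPKM in WT and 5.71 and 6.76 in KO. The fusion line had 5.5 and 6.14 FPKM when Dex was absent and 6.84 and 7.03 when it was present. At day 2 WT had 0.34 and 0.42 FPKM, below the 1.54 and 1.47 of KO, the 1.11 and 1.2 without Dex and the 0.83 and 0.72 with Dex. At days 4 and 6 its levels ran from 0.04 to 0.46 FPKM, while 3 fragments on this gene correspond to 0.0403 to 0.076 FPKM depending on library depth. Those later values, and the WT values at day 2, rest on few fragments, and this limit covers counting error only.

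**Figure D1:**
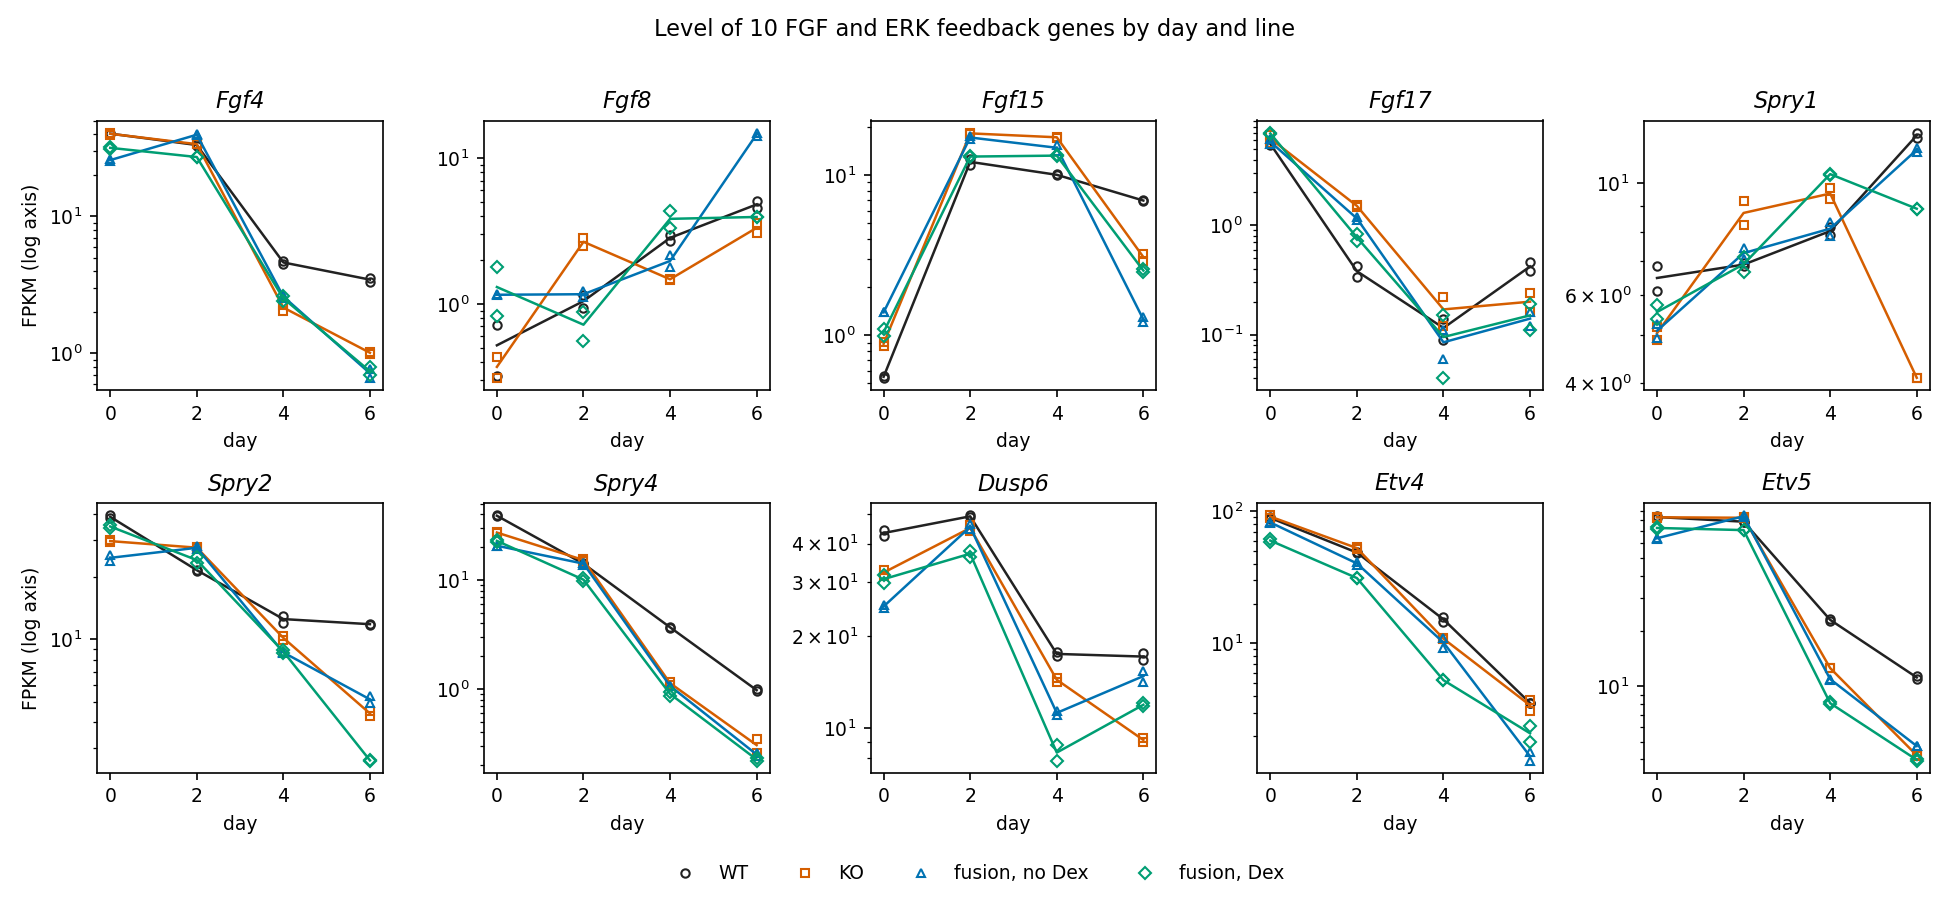
Each panel plots the FPKM (log axis) of 1 gene against the day of culture. Symbols are single libraries, 2 per group, and lines join group means of WT, KO and the fusion line without and with Dex. Fgf4, Fgf17, Spry2, Spry4, Dusp6, Etv4 and Etv5 end lower than they start in all 4 lines. Among the Fgf8 groups that without Dex ends highest, at 14.21 and 14.91 FPKM.

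Among the Sprouty genes, Spry1 kept apart from the others. Spry1 (ENSMUSG00000037211; chromosome 3, 37639947 to 37644598, plus strand) read 6.1 and 6.86 FPKM in WT at day 0, 6.94 and 6.84 at day 2, 8.18 and 7.88 at day 4, and 12.59 and 12.29 at day 6. KO read 4.88 and 5.19, then 9.2 and 8.25, then 9.76 and 9.31, and at day 6 only 4.1 and 4.11 FPKM, the lowest Spry1 level of the 16 groups. Without Dex day 6 stood at 11.54 and 11.76 FPKM, and with Dex at 8.9 and 8.89 FPKM. At day 6 the 4 lines were thus in the order WT, no Dex, Dex, KO, with no overlap between neighbours.

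Spry2 and Spry4 ran down with time instead. Spry2 (ENSMUSG00000022114; chromosome 14, 105891947 to 105896819, minus strand) fell in WT from 39.62 and 38.28 FPKM at day 0 through 21.7 and 21.42 to 13 and 12.06 at day 4, and stood at 11.88 and 11.8 at day 6. At day 6 KO was at 4.5 and 4.3 FPKM, the fusion line without Dex at 5.36 and 4.93, and with Dex at 2.62 and 2.61, so the Dex arm was the lowest. Spry4 (ENSMUSG00000024427; chromosome 18, 38586247 to 38601415, minus strand) fell in WT from 39.33 and 38.56 FPKM to 14.22 and 14.01, then 3.66 and 3.7, and then 0.95 and 1.0. At day 4 KO already stood at 1.17 and 1.09, the fusion line without Dex at 1.06 and 1.07, and with Dex at 0.87 and 0.93, with all 6 of these libraries below the WT pair. Spry4 had the steepest loss of the inhibitor genes, with mean FPKM 39.9-fold lower at day 6 than at day 0 in WT and 89.5-fold in KO. For the fusion line these folds were 82.7 without Dex and 101.7 with it.

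Dusp6 (ENSMUSG00000019960; chromosome 10, 99263231 to 99267489, plus strand) peaked at day 2 and lost least of the genes that ran down. WT read 44.17 and 42.4 FPKM at day 0, 48.68 and 49.46 at day 2, 17.25 and 17.7 at day 4, and 17.62 and 16.64 at day 6, where the last 2 days overlapped. KO read 31.43 and 32.91, then 45.96 and 43.94, then 14.17 and 14.62, and then 9.28 and 9.04 FPKM. In the fusion line Dusp6 was higher at day 6 than at day 4, at 15.42 and 14.17 against 11.37 and 11.08 without Dex and at 11.78 and 12.08 against 7.85 and 8.82 with Dex.

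Etv4 and Etv5 were the most abundant members in stem cells. Etv4 (ENSMUSG00000017724; chromosome 11, 101769742 to 101785371, minus strand) read 87.42 and 90.77 FPKM in WT at day 0, 49.11 and 48.28 at day 2, 14.54 and 15.86 at day 4, and 3.52 and 3.56 at day 6. KO tracked it closely at first, overlapped WT at day 0 with 93.26 and 89.13, and again at day 6 with 3.72 and 3.09 FPKM. Etv4 was lower in the Dex arm than in the other 3 groups at days 0, 2 and 4, and at day 6 it was lowest without Dex, at 1.5 and 1.3 FPKM. Etv5 (ENSMUSG00000013089; chromosome 16, 22381309 to 22439719, minus strand) held 84.45 and 82.02 FPKM at day 0 and 78.4 and 78.6 at day 2 in WT, then 22.77 and 23.14 at day 4 and 10.92 and 11.4 at day 6. In KO it was 83.68 and 82.23, 82.77 and 82.16, 12.51 and 12.58, and 4.22 and 4.19 FPKM, so the gap to WT opened between days 2 and 4. Without Dex day 6 stood at 4.73 and 4.72 FPKM and with Dex at 3.94 and 4.01, with no overlap among the 4 lines.

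The sequence before the start site is shown for Fgf4, Spry2, Dusp6 and Etv5. They were the members with a promoter entry that held bases outside annotated exons. All of them fell between days 2 and 4 in each line, as did Spry4, Etv4 and Fgf17, for which no entry was found. RefSeq promoter entries of the GRCm38.p6 build were found for 5 of the 10 members: Fgf4, Spry1, Spry2, Dusp6 and Etv5. Each stretch runs 5′ to 3′ on the gene's own strand and leaves out bases that fall in annotated exons, which removed the whole window of Spry1. All but the upstream Etv5 stretch end next to the start, and between that one and its start lie annotated exon bases. Capitals mark GGAA or its reverse complement TTCC, the core bound by ETS-family factors such as ETV4 and ETV5. The Fgf4 stretch is chr7:144861136-144861385, plus strand, inside the annotated span of the gene, which has a transcript starting further upstream. The Dusp6 stretch is chr10:99262981-99263230, plus strand, and the Spry2 stretch is chr14:105896820-105897069, minus strand. Etv5 has 2 starts in the table, with stretches chr16:22439720-22439820 and chr16:22438369-22438618, minus strand.
Fgf4: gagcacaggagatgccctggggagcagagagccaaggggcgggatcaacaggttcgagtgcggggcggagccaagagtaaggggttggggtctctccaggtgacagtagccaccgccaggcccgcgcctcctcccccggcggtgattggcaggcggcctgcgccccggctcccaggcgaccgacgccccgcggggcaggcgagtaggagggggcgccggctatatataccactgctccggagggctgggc
Dusp6: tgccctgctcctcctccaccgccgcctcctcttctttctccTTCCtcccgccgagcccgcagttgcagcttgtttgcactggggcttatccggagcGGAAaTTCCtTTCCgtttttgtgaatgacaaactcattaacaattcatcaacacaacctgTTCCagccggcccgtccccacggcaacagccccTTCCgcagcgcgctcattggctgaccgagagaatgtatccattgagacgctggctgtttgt
Spry2: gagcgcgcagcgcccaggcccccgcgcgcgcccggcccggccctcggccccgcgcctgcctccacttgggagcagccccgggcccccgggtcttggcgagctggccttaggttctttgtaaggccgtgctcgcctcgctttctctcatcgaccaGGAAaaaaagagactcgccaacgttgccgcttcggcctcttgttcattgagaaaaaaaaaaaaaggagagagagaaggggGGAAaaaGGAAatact
Etv5, upstream start: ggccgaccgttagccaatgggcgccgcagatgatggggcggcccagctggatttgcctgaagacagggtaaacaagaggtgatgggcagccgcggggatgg
Etv5, downstream start: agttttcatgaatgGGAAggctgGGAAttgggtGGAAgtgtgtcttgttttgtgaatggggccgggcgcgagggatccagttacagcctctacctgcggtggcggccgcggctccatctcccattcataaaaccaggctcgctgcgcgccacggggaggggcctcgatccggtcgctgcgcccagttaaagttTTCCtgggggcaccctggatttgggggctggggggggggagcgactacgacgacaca
Counting both strands, the Dusp6 stretch held 6 matches to the ETS core, the downstream Etv5 stretch 4, the Spry2 stretch 3, and the Fgf4 and upstream Etv5 stretches 0. The core is short, and 93.43% of 32536 promoters of 250 bases in the table held it on either strand. A longer form, CGGAAG or CTTCCG, which contains the core, was in the Dusp6 stretch once and in none of the other 4, against 13.68% of all promoters. CCAAT or ATTGG, the box bound by the NF-Y complex, was found once each in the Fgf4, Dusp6 and both Etv5 stretches and not in that of Spry2, against 33.81% of all promoters. A match is a description of letters in these windows and no evidence of binding.

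The step from day 2 to day 4 was tested in each line with limma on log2(FPKM + 1), with Benjamini-Hochberg adjustment over all 16276 tested genes and a call at an adjusted p under 0.05. Log2 changes on this scale understate the change of genes near or below 1 FPKM. In WT 10 of 10 members were called, where 59.9% of all tested genes were, 8 lower (25.6% of all genes) and 2, Fgf8 and Spry1, higher (34.3%). In WT the changes were -2.61 ± 0.05 for Fgf4 (SE, limma adjusted p = 3.4e-19), -1.73 ± 0.02 for Etv5 (adjusted p = 4.26e-21) and -1.69 ± 0.04 for Spry4 (adjusted p = 3.62e-17). In KO 8 members were called, all lower, where 64.2% of all genes were called and 28.7% lower, and Fgf4, Spry4 and Etv5 changed by -3.46, -2.93 and -2.62 on the log2 scale. Fgf8 fell in KO (-0.56 ± 0.16, limma adjusted p = 0.00373) over the same interval in which it rose in WT (0.91 ± 0.16, adjusted p = 4.93e-05), and the difference between those 2 changes was not tested. Without Dex 10 members were called (60.8% of all genes), 8 lower (27.1%) and 2 higher (33.7%). With Dex 9 were called (66.7%), 7 lower (25.8%) and 2 higher (40.9%). The median log2 change of the 10 members was -1.09 in WT and -1.47 in KO, and in the fusion line -1.73 without Dex and -1.70 with it, against medians over all tested genes between 0.0309 and 0.0891.

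The steps on either side were less uniform. From day 0 to day 2, Fgf15 rose in each line, by 3.08 ± 0.05 (SE) in WT and 3.35 in KO, and in the fusion line by 2.93 without Dex and 2.78 with it. Fgf17 fell in each, with changes of -2.25 in WT, -1.53 in KO, and -1.66 and -2.16 in the fusion line without and with Dex. Etv4 and Spry4 also fell and Dusp6 rose in all 4. In that interval 9 members were called in each line, where the share over all genes was 63.4% in WT and 65.6% in KO, and in the fusion line 67.9% without Dex and 60.6% with it. The call for Spry2 without Dex (0.16) turned to -0.03 with median-of-ratios rescaling. From day 4 to day 6 the members called were 8 in WT (66.7% of all genes), 9 in KO (65.3%), 9 without Dex (67.9%) and 8 with Dex (65.1%). In that last interval Spry1 rose in WT (0.57 ± 0.05, limma adjusted p = 1.56e-08) and fell in KO (-1.04 ± 0.05, adjusted p = 1.84e-12), and Fgf8 rose without Dex by 2.39 ± 0.16 (adjusted p = 5.73e-11).

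Across the 16 group means, 6 members were correlated with each other. Pairwise Pearson r among Fgf4, Spry2, Spry4, Dusp6, Etv4 and Etv5 ran from 0.8275 (Dusp6 with Etv4) to 0.9896 (Fgf4 with Etv5). Fgf8 ran against Etv4 at r = -0.8469, and Fgf15 had r between -0.233 and -0.014 with Spry2, Spry4, Dusp6, Etv4 and Etv5. These values describe group means that share the same days and lines, so they carry no p. Among 13663 other tested genes with a symbol, those most like Fgf4 were Gtsf1l (r = 0.9922), Slc7a7 and Sfrp4, and those most like Etv5 were Slc7a7 (0.9949), Gtsf1l and Anxa11. Spry4 was nearest to Prr23a3 (0.9892), Gdf3 and Hsf2bp, Spry2 to Platr14 (0.9733), Nub1 and Dppa4, Etv4 to Rybp (0.984), Rhd and Rpp25, and Dusp6 to Tafa4 (0.9664), Slc25a31 and P2rx5. Fgf17 was nearest to Myh13 (0.9916), Robo4 and Fbxo24, and Fgf15 to Jph4 (0.9663), Thbs4 and Slc30a10. The likeness was weaker for Fgf8, nearest to H2az2 (0.9086), Plgrkt and Brd3, and weakest for Spry1, nearest to Pak3 (0.866), Iqank1 and Ccdc191.

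The first comparison between lines asked how the members differ when Mettl3 is labelled as knocked out. In stem cells the 4 inhibitor genes were lower in KO while the ligand Fgf4 and the factors Etv4 and Etv5 were not called. Spry4 was at 27.29 FPKM in KO against 38.945 in WT (group means), which is -0.50 ± 0.04 on the log2 scale (SE; limma adjusted p = 1.07e-08). Dusp6 changed by -0.42, Spry2 by -0.38 and Spry1 by -0.31, and Fgf15 rose by 0.28 from 0.55 to 0.885 FPKM. In all, 5 of 10 members were called, 1 higher and 4 lower, where 48.2% of all genes were, 18.4% higher and 29.8% lower, so the share called was near that of all genes.

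At day 2 the direction was mostly the opposite. Fgf17 was higher in KO by 0.86 ± 0.08 (limma adjusted p = 9.71e-09), Fgf8 by 0.84 ± 0.16 (adjusted p = 0.000117), Fgf15 by 0.56 ± 0.05 (adjusted p = 8.3e-09), Spry2 by 0.35 ± 0.04 and Spry1 by 0.30 ± 0.05. The Fgf17 change rests on an estimated 20 and 21 fragments in the WT libraries, against 115 and 69 in those of KO. In all 8 members were called, 7 higher and 1 lower, where 58.9% of all genes were called, 37.5% higher and 21.3% lower. The median log2 change was 0.20 over the members, and over all tested genes it was itself 0.09. The smaller calls did not hold under other settings: Spry4 (0.11) and Etv5 (0.07) turned to -0.0079 and -0.049 with median-of-ratios rescaling. Without WT replicate 1 of day 2, Spry4, Dusp6 and Etv5 lost their calls and 5 members remained called.

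By day 4, 7 members were lower in KO and 2 were higher. Spry4 fell furthest (-1.14 ± 0.04, limma adjusted p = 2.16e-14), from 3.68 FPKM in WT to 1.13 in KO. Fgf4 was lower by -0.83 ± 0.05 (adjusted p = 7.65e-12) and Etv5 by -0.82 ± 0.02 (adjusted p = 6.35e-16), followed by Fgf8 (-0.63), Etv4 (-0.45), Spry2 (-0.28) and Dusp6 (-0.26). Fgf15 was higher by 0.72 ± 0.05 (adjusted p = 1.44e-10) and Spry1 by 0.22 ± 0.05. The call of Spry1 was lost with median-of-ratios rescaling, at 0.13. With 9 of 10 called, the background was 60.5% of all genes called, 36.5% higher and 24.0% lower.

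At day 6 each of the 4 inhibitor genes, each of the 4 ligand genes and Etv5 were lower in KO. Spry1 was 3.03-fold lower in mean FPKM (-1.40 ± 0.05 on the log2 scale, SE, limma adjusted p = 2.43e-14), Spry2 2.69-fold (-1.25 ± 0.04, adjusted p = 3.66e-15) and Etv5 2.65-fold (-1.22 ± 0.02, adjusted p = 5.08e-19). Fgf4 was 3.42-fold lower (-1.15 ± 0.05, adjusted p = 3.15e-14), Spry4 3.20-fold (-0.60 ± 0.04, adjusted p = 1.43e-10), Fgf15 2.25-fold (-0.96 ± 0.05, adjusted p = 1.16e-12) and Dusp6 1.87-fold (-0.84 ± 0.05, adjusted p = 1.06e-11). Etv4 overlapped between the lines and was not called. For Fgf8 (-0.43 ± 0.16, adjusted p = 0.022) the call was lost without WT replicate 1, without KO replicate 2 and with a pseudocount of 0.1, the changes without 1 library lying between -0.52 and -0.34. For Fgf17 (-0.24 ± 0.08, adjusted p = 0.00842) it was lost without replicate 2 of either line, between -0.29 and -0.20. With 9 of 10 members called, all lower, the background was 65.1% of all genes called and 34.2% lower. The median log2 change was -0.90 over the members and -0.03 over all tested genes.

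Other cell markers moved with this comparison. The summed level of 6 extraembryonic endoderm genes (Gata4, Gata6, Sox17, Sox7, Dab2, Foxa2) ran from 21.33 to 66.97 FPKM over WT libraries and from 3.99 to 11.81 FPKM over KO libraries. At day 6 all 6 genes were lower in KO, where 34.2% of all genes were. Gata6 was at 0.02 and 0.03 FPKM in KO at day 6, against 6.36 and 5.71 in WT. The pluripotency sum at day 4 was 438.22 FPKM in WT and 242.615 in KO (means of 2). Of its 6 genes 4 were lower in KO and 1 was higher, where 24.0% and 36.5% of all genes were. At day 6 the sum was 76.185 FPKM in WT and 27.87 in KO, and all 6 genes were lower in KO. The summed stem cell transcripts and the Fgf4, Spry4 and Etv5 group were thus both higher in WT. The part of these markers in the differences of the members was not tested.

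**Figure D2:**
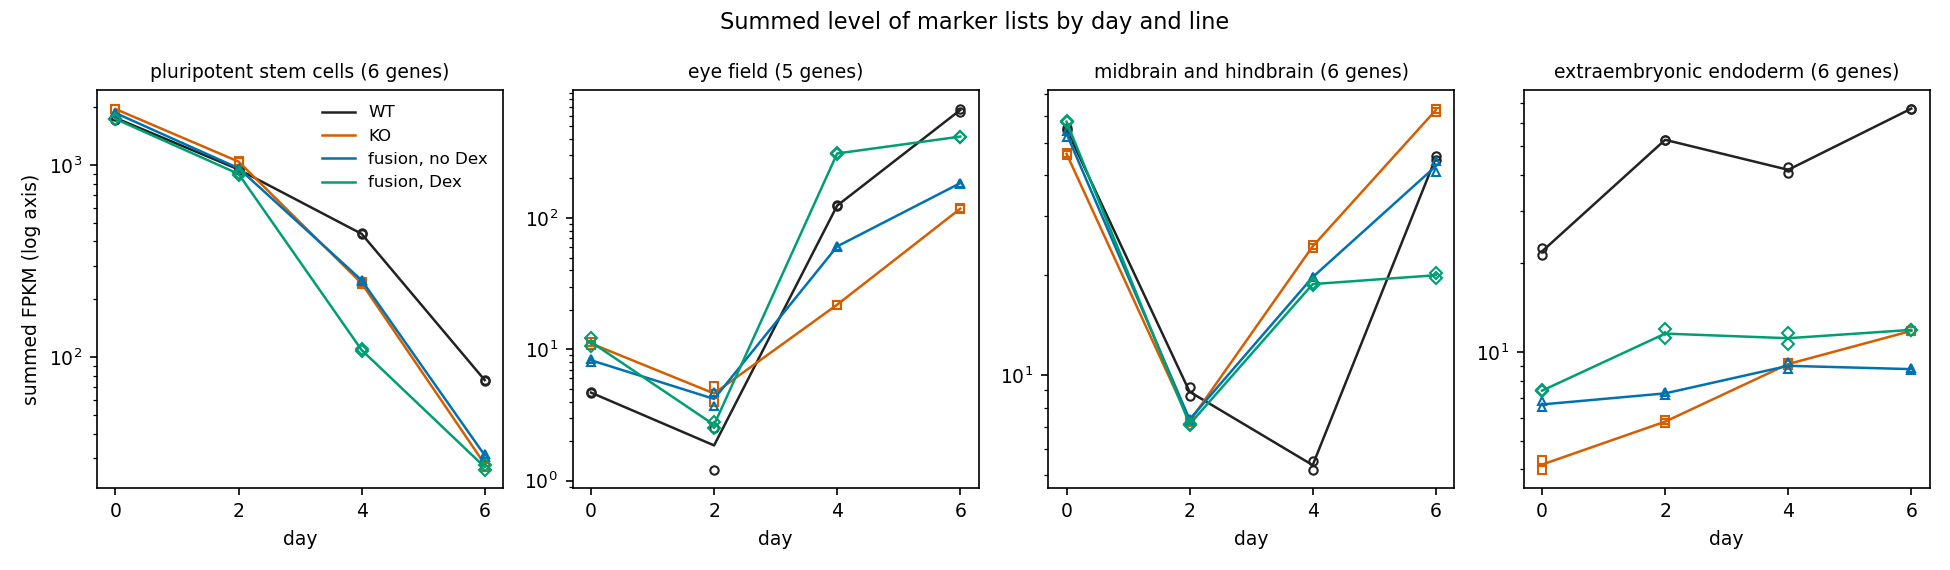
Each panel plots the summed FPKM of a marker list (log axis) against the day of culture, with symbols for single libraries and lines for group means. WT stands above the other 3 lines in extraembryonic endoderm genes at all 4 days and in pluripotency genes at days 4 and 6.

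The second comparison set the fusion line without Dex against KO, to show what the reintroduced protein labelled as cytosolic goes with. At day 6 Fgf8 was 4.38-fold higher without Dex (1.85 ± 0.16 on the log2 scale, SE, limma adjusted p = 8.13e-09) and Spry1 was 2.84-fold higher (1.31 ± 0.05, adjusted p = 4.17e-13). Dusp6 was 1.62-fold higher (0.64 ± 0.05, adjusted p = 1.94e-09), and Spry2 (0.19) and Etv5 (0.14) were higher by less. In the other direction Etv4 was 2.43-fold lower (-0.87 ± 0.08, adjusted p = 2.62e-08), Fgf15 was 2.45-fold lower (-0.85 ± 0.05, adjusted p = 2.8e-11) and Fgf4 fell by 0.23. That made 8 of 10 members called, 5 higher and 3 lower, where 49.0% of all genes were called, 21.1% higher and 27.9% lower. Fgf17, at 0.16 and 0.12 against 0.24 and 0.16 FPKM, and Spry4, at 0.26 and 0.24 against 0.35 and 0.26, overlapped and were not called. Spry2 and Etv5 lost their calls when the 2 groups were fitted alone. Cell markers differed between the same groups. Summed eye field genes were at 185.92 and 182.3 FPKM without Dex and 116.83 and 118.42 in KO, with 4 of 5 genes higher, and summed midbrain and hindbrain genes at 40.75 and 44.16 against 61.89 and 63.27, with 1 of 6 higher and 2 lower. Emx2, a gene of the dorsal telencephalon, was at 72.44 and 72.4 FPKM without Dex and 8.22 and 10.4 in KO, in a telencephalon list of 3 genes with 1 called higher and 1 lower. The part of these markers in the Fgf8 and Spry1 differences was not tested. This comparison shares the KO libraries with that of KO against WT. It also shares the libraries without Dex with that of Dex against no Dex, so its values are not independent of theirs.

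The earlier days gave smaller changes for Fgf8 and Spry1 and, at day 0, larger ones for Fgf4. At day 0, 7 members were called (49.1% of all genes), led by Fgf8 (0.65 ± 0.16) and Fgf4 (-0.62 ± 0.05). At day 2, 5 were called (37.0%), led by Fgf8 at -0.76 ± 0.16, and at day 4, 6 were called (26.7%), led by Dusp6 at -0.33 ± 0.05. The day 2 count was 3 without KO replicate 1 and also with the 2 groups fitted alone. At day 4 it was 3 without replicate 1 of the fusion line and 1, Dusp6, with the 2 groups fitted alone.

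The third comparison, Dex against no Dex within the fusion line, shares no libraries with the comparison of KO and WT. It does share the libraries without Dex with the comparison of no Dex against KO, so the values of these comparisons are not independent. The Fgf8 rise there and fall here at day 6 both rest on the same libraries without Dex, at 14.21 and 14.91 FPKM. At day 6 Fgf8 was 3.69-fold lower with Dex (-1.65 ± 0.16 on the log2 scale, SE, limma adjusted p = 6.76e-08). Spry2 was 1.97-fold lower (-0.76 ± 0.04, adjusted p = 4.84e-11). Fgf15 was 2.02-fold higher (0.65 ± 0.05, adjusted p = 2.56e-09) and Etv4 1.49-fold higher (0.36 ± 0.08, adjusted p = 0.00118). Spry1 (-0.35), Dusp6 (-0.29) and Etv5 (-0.20) were lower. Fgf4, Spry4 and Fgf17 were not called, the first with 0.69 and 0.79 FPKM with Dex against 0.66 and 0.77 without. In all 7 of 10 members were called, 2 higher and 5 lower, where 42.7% of all genes were called, 23.8% higher and 19.0% lower. The calls of Etv4 and Etv5 were lost when the 2 groups were fitted alone.

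Dex went with lower members at day 2 and with a mixed picture at days 0 and 4. At day 2, 8 of 10 members were lower and none higher, where 44.3% of all genes were called and 31.5% lower, and the largest falls were those of Fgf4 (-0.52 ± 0.05, limma adjusted p = 2.8e-08) and Spry4 (-0.45 ± 0.04, adjusted p = 5.75e-08). The median over all genes was itself -0.08 there. Stem cell markers moved the same way: 5 of the 6 pluripotency genes were lower with Dex at day 2, and their sum was 910.74 and 884.01 FPKM with Dex against 968.32 and 953.27 without it. At day 4 the sum was 107.93 and 110.34 FPKM against 249.42 and 253.77, with 4 genes lower and 1 higher. Of the 6 extraembryonic endoderm genes 5 were higher with Dex at day 2, and their sum was 11.97 and 11.14 FPKM against 7.15 and 7.34. The part of these markers was not tested. At day 0, 8 members were called, 6 higher and 2 lower (43.4% of all genes called, 27.3% higher and 16.1% lower), with Spry2 at 0.49 ± 0.04 and Etv4 at -0.45 ± 0.08. At day 4, 7 were called, 2 higher and 5 lower (40.2%, with 18.3% higher and 21.9% lower), with Etv4 at -0.83 ± 0.08 (adjusted p = 1.22e-07) and Fgf8 at 0.70 ± 0.16 (adjusted p = 0.00137). Fgf8 was thus higher with Dex at day 4, at 3.32 and 4.34 against 2.16 and 1.78 FPKM, and lower at day 6.

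Markers of midbrain, hindbrain and eye field moved between the same day 6 groups. Over all genes 42.7% were called between them, 23.8% higher and 19.0% lower with Dex. Summed midbrain and hindbrain genes (En1, En2, Pax2, Pax5, Gbx2, Wnt1) were at 40.75 and 44.16 FPKM without Dex and 19.6 and 20.35 with it, with 5 of 6 genes lower and 1 higher with Dex. Nearly all of the sum without Dex was Wnt1, at 37.93 and 40.64 FPKM, which was also at 57.96 and 59.41 FPKM in KO, where Fgf8 was at 3.6 and 3.05. Summed eye field genes were at 185.92 and 182.3 FPKM without Dex and 416.33 and 416.53 with it, with 4 of 5 genes higher. The part of these cell markers in the Fgf8 difference was not tested.

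Set against WT, the fusion line with Dex was lower in 9 of 10 members at day 6, where 61.4% of all genes were called and 32.2% lower. Spry2 was 4.53-fold lower (-1.83 ± 0.04 on the log2 scale, SE, limma adjusted p = 3.08e-17), Fgf4 4.67-fold (-1.36 ± 0.05, adjusted p = 5.62e-15), Etv5 2.81-fold (-1.29 ± 0.02, adjusted p = 7.89e-19) and Fgf15 2.74-fold (-1.17 ± 0.05, adjusted p = 1.23e-13). Fgf8, at 3.97 and 3.92 against 5.09 and 4.53 FPKM, was the member not called. At day 4, 8 members were called, 2 higher and 6 lower (44.7% of all genes, with 25.7% higher and 19.1% lower), with Etv5 at -1.40 ± 0.02, Etv4 at -1.37 ± 0.08 and Spry4 at -1.30 ± 0.04. At day 2, 7 were called (29.4%), led by Etv4 at -0.62 ± 0.08. At day 0, 10 were called (49.8%), but 6 when the 2 groups were fitted alone. This comparison shares WT libraries with the first and Dex libraries with the third, so its values are not independent of theirs. The extraembryonic endoderm sum was 7.38 to 11.97 FPKM over Dex libraries against 21.33 to 66.97 over those of WT. All 6 pluripotency genes were lower with Dex than in WT at days 4 and 6. Their mean sums were 109.135 against 438.22 FPKM at day 4 and 26.905 against 76.185 at day 6. Of the 5 eye field genes 4 were higher with Dex at day 4, while at day 6 1 was higher and 4 were lower. The part of these markers was not tested.

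**Figure D3:**
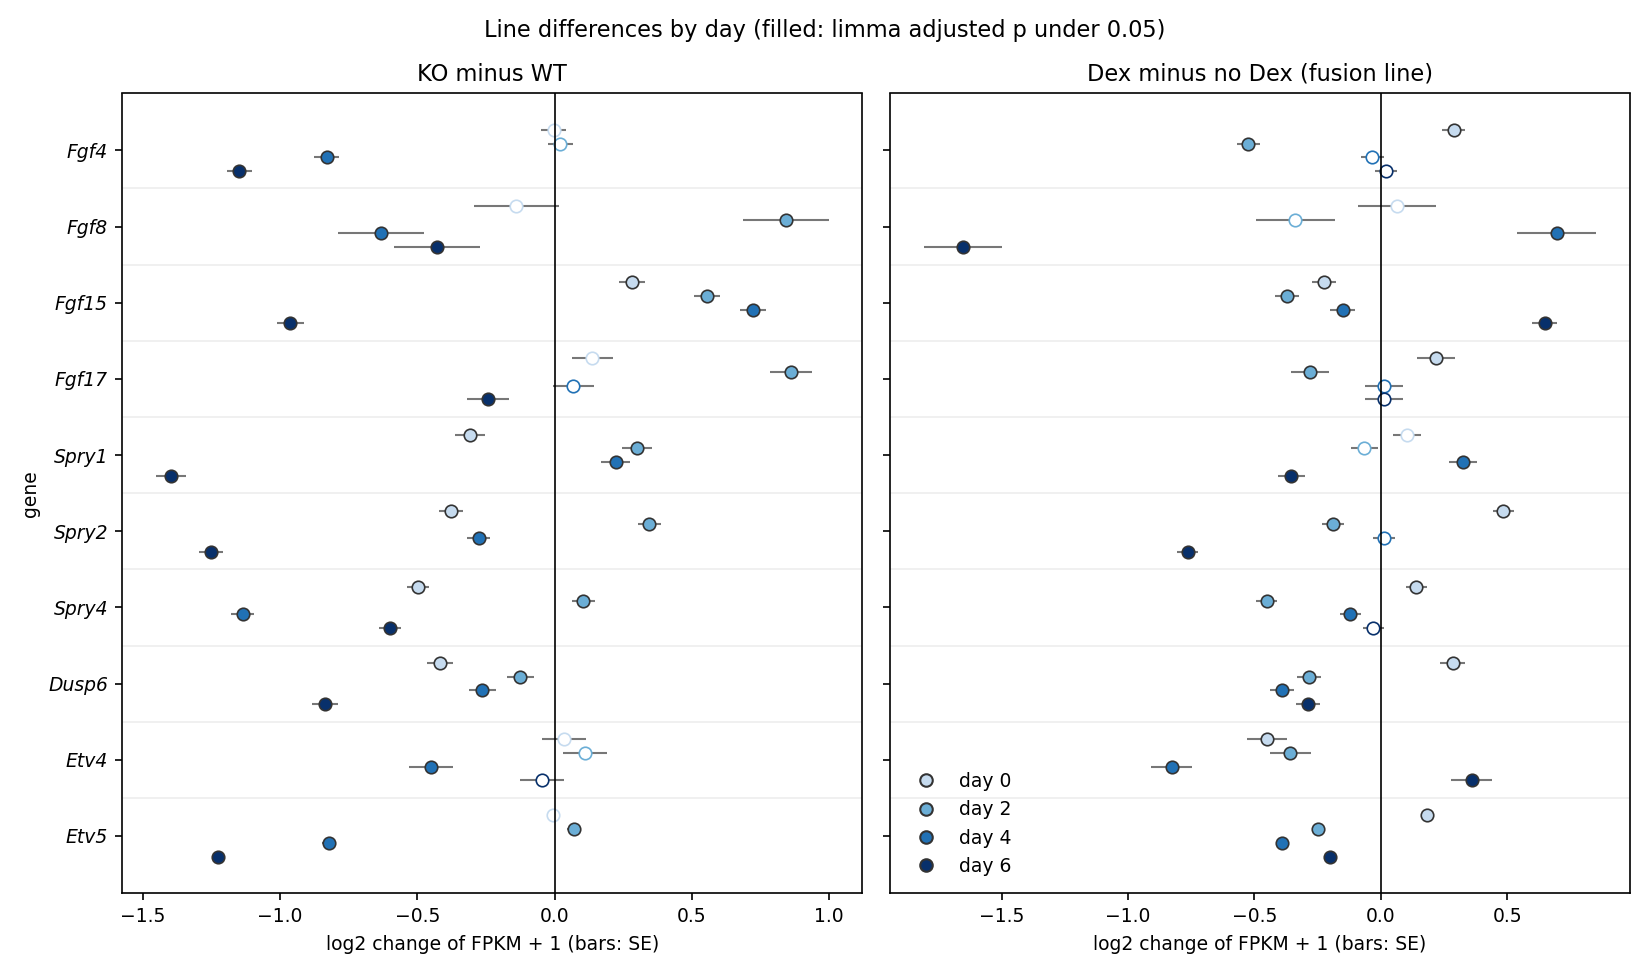
The horizontal axis is the log2 change of FPKM + 1 in KO minus WT (left) and Dex minus no Dex (right), 1 row per gene and 1 shade per day, with bars for the SE and filled symbols for limma adjusted p under 0.05. In the left panel 9 day 6 symbols are filled and lie left of 0, and in the right panel Fgf8 at day 6 lies furthest left, at -1.65.

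Whether a difference between lines changed with time was tested as the day 6 difference minus the day 0 difference. For KO against WT 7 members were called, where 56.9% of all genes were, and all 7 moved down (25.8% of all genes). They were Fgf15 (-1.24 ± 0.07, limma adjusted p = 1.22e-11), Etv5 (-1.22 ± 0.03, adjusted p = 3.18e-16), Fgf4 (-1.14 ± 0.06, adjusted p = 1.61e-11), Spry1 (-1.09), Spry2 (-0.87), Dusp6 (-0.42) and Fgf17 (-0.38). Fgf8, Spry4 and Etv4 were not called. For Spry4 the mean FPKM of KO was 1.43-fold below WT at day 0 and 3.20-fold below at day 6. Its day 6 means were 0.305 FPKM in KO and 0.975 in WT, where the log2(FPKM + 1) scale understates the change. For Dex against no Dex 9 were called, where 48.7% of all genes were, 2 up (22.7%) and 7 down (25.9%), with Fgf15 (0.87 ± 0.07) and Etv4 (0.81 ± 0.11) moving up and Fgf8 (-1.72 ± 0.22, adjusted p = 2.86e-06) and Spry2 (-1.25 ± 0.06, adjusted p = 8.86e-12) moving down the most. The call of Spry4 there (-0.17) was lost with a pseudocount of 0.1, with median-of-ratios rescaling and without any of 3 single libraries.

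Other genes of the pathway were read from lists of ligands, receptors, signal transducers and further feedback genes. Of 14 other FGF ligand genes, 5 passed the filter, and in KO at day 6 4 of these were lower than in WT, none higher, where 65.1% of all genes were called and 34.2% lower. Fgf9, a ligand of the neural retina and other epithelia, had the largest fall among them (-1.56 ± 0.08, limma adjusted p = 1.5e-12), from 2.88 and 2.95 FPKM in WT to 0.34 and 0.32 in KO. Fgf5, a marker of the primed epiblast that follows naive pluripotency, was the most abundant of the list in WT at days 2 and 4, at 35.74 and 37.67 and then 44.73 and 46.16 FPKM, and stood at 2.06 and 1.68 at day 6. In KO it was higher at day 2 (0.75 ± 0.09, adjusted p = 6.39e-07), with 61.64 and 63.38 FPKM, and lower at day 6, with 0.08 and 0.14 FPKM. Between Dex and no Dex at day 6 none of the 5 was called by limma.

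Receptor genes were split between directions. At day 6, 4 of 6 receptor genes were higher in KO and 2 lower, where 65.1% of all genes were called, 30.9% higher and 34.2% lower. Fgfr3, a receptor tyrosine kinase of the family, was at 17.42 and 17.53 FPKM in KO and at 2.32 and 2.93 in WT (2.35 ± 0.11, limma adjusted p = 3.87e-13), and Klb, a co-receptor for endocrine FGFs, was lower (-1.0035 ± 0.07, adjusted p = 1.3e-10). Fgfr2 was at 100.81 and 99.64 FPKM in KO and 30.76 and 32.49 in WT (1.63 ± 0.06, adjusted p = 8.61e-15). With Dex, 3 receptor genes were higher and 2 lower than without it at day 6 (42.7% of all genes called), with Fgfrl1, a receptor that lacks the kinase domain, at 0.80 ± 0.14 (adjusted p = 0.000108) and Fgfr3 at -0.59 ± 0.11 (adjusted p = 0.000218). The receptor gene Fgfr1 lies on chromosome 8, and 0 of the 10 members lie there. Over 858 genes of that chromosome the median KO minus WT change was 0.01 at day 0, against -0.04 on other chromosomes. It was 0.24 against 0.08 at day 2, 0.34 against 0.05 at day 4 and 0.35 against -0.05 at day 6.

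The 17 signal transducer genes went both ways. At day 6 KO had 8 higher and 5 lower than WT (65.1% of all genes called), with Frs3, a receptor adaptor, at 0.70 ± 0.12 (limma adjusted p = 3.71e-05) and the kinase gene Braf at -0.68 ± 0.06 (adjusted p = 1.14e-08) as the extremes. Dex against no Dex gave 7 higher and 6 lower (42.7% of all genes called), between 0.55 ± 0.03 for Mapk3, which encodes ERK1 (adjusted p = 6.55e-11), and -0.29 ± 0.05 for the adaptor gene Frs2 (adjusted p = 0.000241). The median over the list was 0.07 for KO against WT and -0.05 for Dex against no Dex, against -0.03 and 0.01 over all genes.

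Of 12 other feedback genes 11 were tested. In KO at day 6, 7 were lower and 2 higher (65.1% of all genes called, 34.2% lower and 30.9% higher), among them Dusp9, an ERK phosphatase like Dusp6, at -2.15 ± 0.06 (limma adjusted p = 2.71e-16) and the phosphatase gene Dusp7 at 0.51 ± 0.04 (adjusted p = 4.82e-09). Dex against no Dex gave 3 higher and 7 lower, where 42.7% of all genes were called, 23.8% higher and 19.0% lower. Dusp9 was there the largest rise, at 14.62 and 15.4 FPKM with Dex against 1.97 and 1.73 without it (2.49 ± 0.06, adjusted p = 3.94e-16), beside 10.37 and 10.57 in WT and 1.58 in both KO libraries. Dusp4, also a phosphatase gene and located on chromosome 8, had the largest fall with Dex (-0.62 ± 0.03, adjusted p = 2.46e-12). No chromosome 8 median was taken between Dex and no Dex. Dusp6 and Dusp9 thus differed in direction between Dex and no Dex at day 6, the former with a change of -0.29 ± 0.05.

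**Figure D4:**
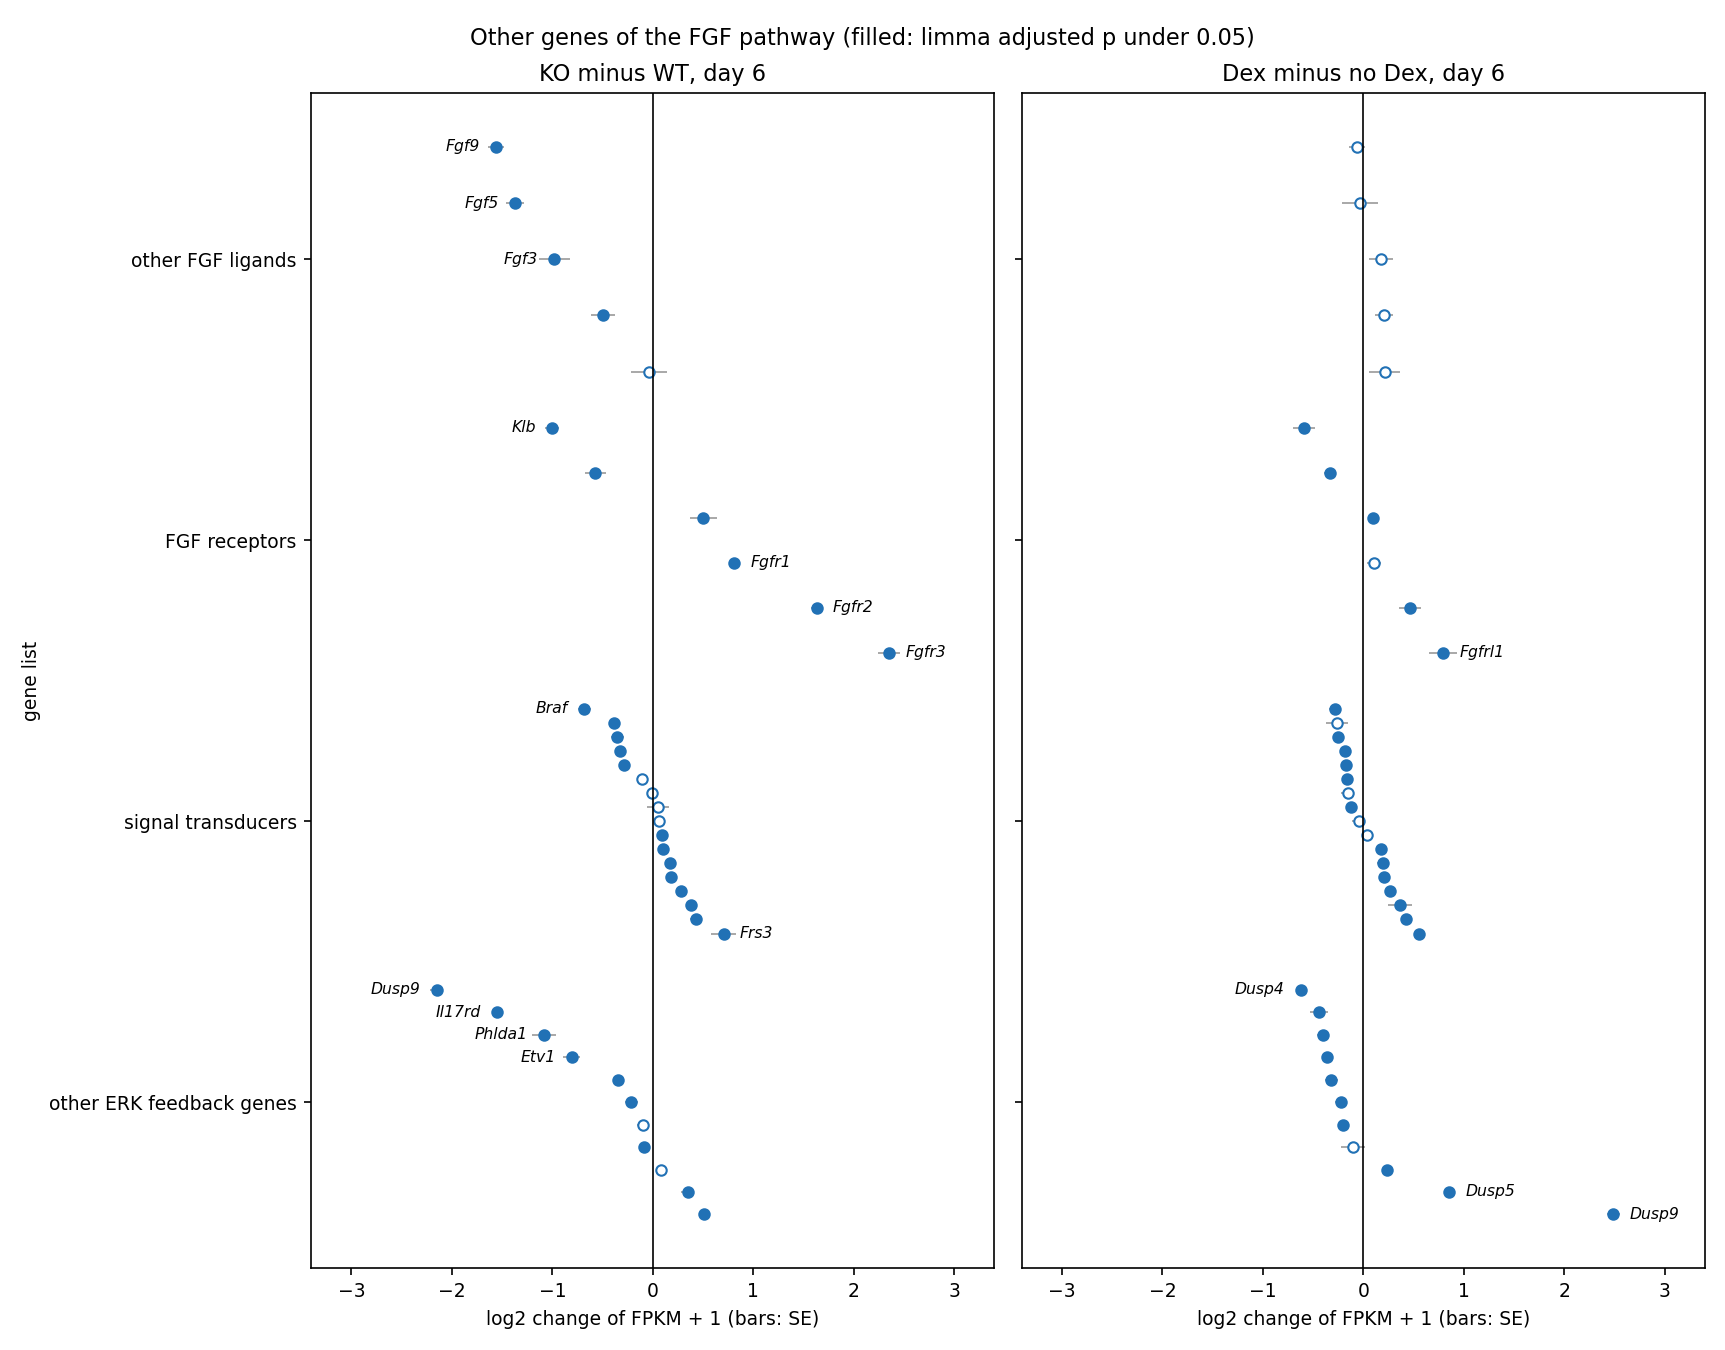
The horizontal axis is the log2 change of FPKM + 1 at day 6, KO minus WT (left) and Dex minus no Dex (right), for the tested genes of 4 pathway lists, each sorted by its change within a panel. Bars are the SE, filled symbols have a limma adjusted p under 0.05, and Dusp9 is at -2.15 on the left and 2.49 on the right.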

How the data were processed

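Polyadenylated RNA of 32 libraries in 16 groups of 2 was measured by paired-end sequencing, with a single batch date in the labels. The authors deposited FPKM per gene, rounded to 2 decimals. The submitters' processing notes name STAR, Cuffdiff and mm10, without roles. Strandedness and the annotation are not given in the sources used here. Fgf15 and Spry1 overlap antisense gene models that reached at most 1.44 and 0.97 FPKM.

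Positions came from GENCODE M21 (GRCm38), which matched 99.52% of rows by gene ID, and promoters from RefSeq (GRCm38.p6). Low FPKM values lie at multiples of what 1 fragment is worth, and depth was read from those steps, with 88.2% to 91.4% of low values within 0.2 of a whole number (40.0% by chance). In R 4.3.3, limma 3.58.1 (eBayes with trend) was fitted to log2(FPKM + 1) of all 32 libraries (16 group means, 16 residual df), for 16276 genes with at least 1 FPKM in at least 2 libraries. Tests were two-sided, with 30 comparisons, each adjusted over all tested genes. On simulated data for KO against WT at day 6 with 16276 genes, the fit recovered 88.2% of genes changed by 0.5 and 98% of those changed by 1 on the log2 scale. False calls averaged 10.2 per simulation. The changed genes were drawn from those with a mean log2(FPKM + 1) above 2, so the recovered shares do not cover genes of lower mean level. They were also a small part of all genes, while 65.1% were called in the data, and the simulated spread was independent between libraries. The simulation therefore does not give the error rates of the data. No sample was dropped or imputed.

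Named genes were the members, for each the 3 genes with the highest r over group means, and from each pathway list the largest called rise and fall at day 6 in the comparisons of KO with WT and of Dex with no Dex. Fgf5, Fgfr1 and Fgfr2, and chromosome 8, were named after their values were seen. Marker genes checked the labels. Some genes within the lists are not reported here. The members and lists were chosen with earlier results of these data known. Alternatives were a pseudocount of 0.1, no filter, a mean of at least 5 FPKM, median-of-ratios rescaling, fits of only the groups compared, a block for the replicate number, and leaving out each library in turn.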

Additional observations from a re-analysis of the deposited data

Results flagged for a closer look

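Some differences between lines changed between day 0 and day 6 by a test of that change itself (limma, adjusted over 16276 genes). For KO against WT the day 6 difference minus the day 0 difference was -1.1445 for Fgf4, -1.2439 for Fgf15, -0.381 for Fgf17, -1.0882 for Spry1, -0.8723 for Spry2, -0.418 for Dusp6 and -1.2192 for Etv5 on the log2 scale. For Dex against no Dex it was -0.2672 for Fgf4, -1.7179 for Fgf8, 0.8741 for Fgf15, -0.4582 for Spry1, -1.2503 for Spry2, -0.1699 for Spry4, -0.5722 for Dusp6, 0.8089 for Etv4 and -0.3862 for Etv5. Of these, Fgf15 in KO against WT, Spry2, Dusp6 and Etv5 in Dex against no Dex, and Etv4 and Fgf15 in Dex against no Dex were called on both days with opposite signs. Groups of 2 libraries allow no check for outlying samples.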

How the results depend on the processing

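Of 244 changes of members called across the 30 comparisons, none reversed under a pseudocount of 0.1 (10 calls lost), no filter on low values (5 lost) or the compared groups alone (30 lost), and 206 of 206 that could be tested held at a mean of at least 5 FPKM. Median-of-ratios rescaling lost 10 calls and reversed 3: Spry4 (-0.0079) and Etv5 (-0.049) in KO against WT at day 2 and Spry2 without Dex from day 0 to day 2 (-0.0324). The cause of the lost and reversed calls was not tested. With 1 library left out, which leaves an arm with 1 library assumed to vary like the other groups, 57 of 1040 refitted values lost their call. Same-numbered libraries deviated together little or not at all (r from -0.0884 to 0.1252 over 120 pairs of groups, 4 above 0.1). Such values cannot settle whether the numbers pair libraries, as a weak shared deviation would also give a low r. The replicate block left 244 of 244 calls in place.

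Counts of called members moved by over 1.5 times in 4 comparisons. Without Dex against KO at day 2 gave 3 in place of 5 with a mean of at least 5 FPKM and with the compared groups alone, and at day 4 1 in place of 6 with the compared groups alone. Dex against WT at day 0 gave 6 in place of 10 with the compared groups alone. With 1 library left out the counts ran from 5 to 7 for KO against WT at day 2 (8 with all libraries), from 3 to 4 without Dex against KO at day 2, and from 3 to 6 at day 4. Counts over all genes with the compared groups alone were 3357 (KO against WT, day 0), 3941 and 2284 (no Dex against KO, days 2 and 4), and 4342 and 2603 (Dex against WT, days 0 and 2). With a mean of at least 5 FPKM, where 9412 genes were tested, they were 6469 and 7127 in WT (day 4 against 2, day 6 against 4), 7007, 6957 and 7016 in KO and 7339, 6514 and 7229 without Dex (each with day 2 against 0 first), and 7125 and 7030 with Dex (day 4 against 2, day 6 against 4). Depth limits Fgf17 at days 4 and 6 and in WT at day 2, and Fgf8 at day 0. For these 2 genes 3 fragments correspond to up to 0.076 and 0.1004 FPKM.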
